A study of Homo sapiens with 3 samples.

Results

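The genes described here are 10 of the 58735 genes in the expression table of NCI-H660 (H660) cells, taken by symbol for their part in sensing stress of the endoplasmic reticulum (ER) and in the disposal of misfolded ER proteins. They are ERN1, EIF2AK3, ATF6, XBP1, DNAJB9, DNAJC3, HERPUD1, EDEM1, SEL1L and SYVN1, and each of the 10 symbols matched a single row. H660 is a human neuroendocrine prostate cancer line. Parental cells were given the vehicle DMSO, JG231 at 2.5 μM or JG231 at 5 μM for 24 h, and bulk RNA-seq was made from 1 library per condition, so the 3 libraries carry no replicate error and no comparison below has a test or a p-value. JG231 is an allosteric inhibitor of the HSP70 chaperones, and the comparison of drug with vehicle asks which transcripts differ when HSP70 is inhibited in these cells.

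Proteins that fail to fold in the ER are detected by membrane sensors. ERN1 (IRE1α) is a kinase and ribonuclease that splices XBP1 mRNA into the form that encodes an active transcription factor, EIF2AK3 (PERK) is a kinase that slows translation by phosphorylating the initiation factor eIF2α, and ATF6 is a membrane-bound transcription factor that is released by proteolysis in the Golgi. The ER chaperone HSPA5 (BiP), itself a member of the HSP70 family, binds the sensors and folds client proteins with the help of J-domain proteins such as DNAJB9 and DNAJC3. Clients that cannot be folded leave by ER-associated degradation (ERAD), in which EDEM1 marks glycoproteins by trimming their mannose, SEL1L and the ubiquitin ligase SYVN1 (HRD1) carry them across the membrane and tag them, and HERPUD1 helps to assemble that complex.

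The deposited values are FPKM, fragments scaled by exon length and by library size, which can be compared between genes of a library. For most genes with a single transcript and under 50 fragments (82.7% to 87.0% in a library, within 0.02 of a fragment), FPKM multiplied by gene length lay on equal steps, each worth 1 fragment, and the steps gave a depth of 16087618 fragments for DMSO, of 20373157 for the lower dose and of 24061352 for the higher dose. The same steps gave whole fragments for all 10 members, from 273 to 10125 in a library, and the 95% intervals below (exact Poisson for a level, Clopper-Pearson for a ratio) cover that counting error only. Neuroendocrine markers were present, with 6 of 7 above 1 FPKM in each library, and their summed level was 429 FPKM with DMSO, 176 with 2.5 μM and 151 with 5 μM JG231. Its part in the results below was not tested, and in bulk RNA fewer cells of a type and less RNA per cell cannot be told apart. The sample records name the cell type as prostatic adenocarcinoma, but 0 of 6 luminal and androgen receptor markers passed 1 FPKM, their sum lay between 0.12 and 0.54 FPKM, and KLK2 was at 0 throughout. Of 4 leukocyte markers none passed 1 FPKM, with PTPRC, CD3E and LYZ at 0, and of 5 fibroblast and endothelial markers only COL1A1 at 5 μM did, with PDGFRB and PECAM1 at 0.

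The 10 genes differed in the size of their response, and only DNAJC3 was called lower, at 5 μM. In JG231-treated cells the sensors, XBP1, DNAJB9 and HERPUD1 were higher than in DMSO, with HERPUD1 7.18-fold higher at both doses, whereas DNAJC3, EDEM1, SEL1L and SYVN1 stayed between 0.792-fold and 1.57-fold of the DMSO level. A gene was called where its FPKM was above 1 in either library and the log2 change, taken after adding 0.1 to each FPKM, was beyond 0.25. At 5 μM, 6 of the 10 members were called higher and 1 lower, beside 36.5% higher and 45.1% lower of the 15765 genes that could be called. At 2.5 μM, 9 members were called higher and 0 lower, beside 36.4% and 43.4% of 15746 genes. Beyond a log2 change of 1, the members called higher were 4 at 5 μM (ERN1, XBP1, DNAJB9 and HERPUD1) and 5 at 2.5 μM (the same with EIF2AK3), against 14.7% and 12.9% of all genes. EIF2AK3 passed 1 narrowly (1.05) and no longer did so with a pseudocount of 1 (0.90) or with a common sum without mitochondrial and small RNA genes (0.76). With a trend in transcript length removed, EIF2AK3 passed 1 at 5 μM as well (1.08), and ATF6 passed 1 at both doses. At either dose 0 members were lower by more than 1 on the log2 scale, against 24.3% and 21.7%. These shares over all genes include genes of lower expression than any member. Genes above 0 FPKM numbered 21862 in DMSO, 19352 at 2.5 μM and 17293 at 5 μM, and the part of this in the shares was not tested. The median log2 change of the members was 0.87 at 5 μM and 1.0 at 2.5 μM, while the median over all genes that could be called was -0.11 and -0.08. Both doses are set against the same DMSO library, so the doses are not independent of each other.

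**Figure D1:**
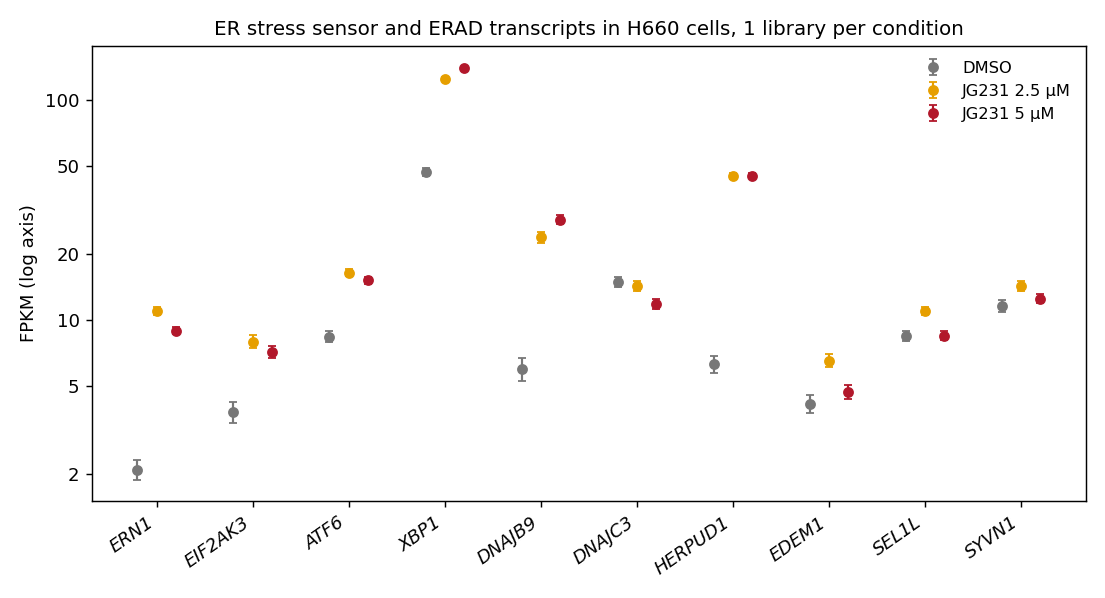
Level of each member in the 3 libraries, in FPKM on a log axis. Points are single libraries (DMSO, JG231 2.5 μM and JG231 5 μM) and bars are 95% exact Poisson intervals of the fragments. ERN1, XBP1, DNAJB9 and HERPUD1 stand well above their DMSO points at both doses, whereas the points of DNAJC3, SEL1L and SYVN1 lie close together.

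Among the sensors, ERN1 differed most. ERN1 (ENSG00000178607, GRCh38 chromosome 17, 64039080 to 64130819, minus strand) had 2.08 FPKM with DMSO, 11.02 with 2.5 μM and 8.96 with 5 μM JG231, from 363, 2439 and 2341 fragments. Its level was 5.31-fold and 4.31-fold that of DMSO at 2.5 and 5 μM, and the 95% interval of the log2 ratio was 2.25 to 2.57 and 1.95 to 2.27. Both JG231 libraries lay far above the DMSO library, and the change of ERN1 at 5 μM exceeded that of 95.5% of all genes that could be called. ERN2, the other gene of the IRE1 kind, was at 0 in all 3 libraries.

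EIF2AK3 and ATF6 were also higher in both JG231 libraries, by smaller amounts. EIF2AK3 (ENSG00000172071, chromosome 2, 88556741 to 88691518, minus strand) had 3.81 FPKM with DMSO, 7.98 with 2.5 μM and 7.15 with 5 μM JG231, from 333, 884 and 935 fragments, which is 2.10-fold and 1.88-fold. The intervals of its log2 ratio were 0.88 to 1.25 and 0.73 to 1.09. ATF6 (ENSG00000118217, chromosome 1, 161766298 to 161977574, plus strand) had 8.41 FPKM with DMSO, 16.4 with 2.5 μM and 15.1 with 5 μM JG231, from 1068, 2635 and 2872 fragments, or 1.95-fold and 1.80-fold, with intervals of 0.86 to 1.07 and 0.74 to 0.95. The EIF2AK3 and ATF6 intervals overlap at each dose, and both lie below those of ERN1. By FPKM, ATF6 was the most abundant sensor transcript in DMSO and at both doses, and ERN1 passed from the lowest of the 3 sensors to above EIF2AK3. This order rests on the exon length behind each FPKM, and for EIF2AK3 longer lengths were also possible. Within a library, where the scaling between libraries plays no part, the level of ERN1 divided by that of EIF2AK3 was 0.545 in DMSO (95% interval 0.469 to 0.635), 1.38 at 2.5 μM (1.28 to 1.49) and 1.25 at 5 μM (1.16 to 1.35). ERN1 divided by ATF6 was 0.247 (0.219 to 0.278), 0.672 (0.636 to 0.711) and 0.592 (0.560 to 0.625). Thus the sensor transcripts were in other proportions in the JG231 libraries than in DMSO, beyond counting error.

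XBP1, the transcript spliced by ERN1, was the most abundant member in every library. XBP1 (ENSG00000100219, chromosome 22, 28794555 to 28800597, minus strand) had 47.1 FPKM with DMSO, 125 with 2.5 μM and 139 with 5 μM JG231, from 2293, 7693 and 10125 fragments. It was 2.65-fold and 2.95-fold higher, with intervals of the log2 ratio of 1.34 to 1.47 and 1.5 to 1.63. The gene value counts spliced and unspliced XBP1 together, so it holds no measure of ERN1 activity. XBP1 was 22.7 times the level of ERN1 in DMSO, 11.3 times at 2.5 μM and 15.5 times at 5 μM, and the intervals (20.3 to 25.4, 10.8 to 11.8 and 14.8 to 16.2) do not overlap.

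The J-domain proteins of the ER lumen went apart. DNAJB9 (ERdj4), which delivers misfolded clients to HSPA5 and represses ERN1, lies at chromosome 7, 108569867 to 108574850, plus strand (ENSG00000128590). DNAJB9 had 5.98 FPKM with DMSO, 23.7 with 2.5 μM and 28.6 with 5 μM JG231, from 273, 1372 and 1953 fragments, so it was 3.97-fold and 4.78-fold higher, with intervals of the log2 ratio of 1.80 to 2.18 and 2.07 to 2.45. DNAJC3 (p58IPK), a J-domain protein also known as an inhibitor of EIF2AK3, lies at chromosome 13, 95677139 to 95794988, plus strand (ENSG00000102580). DNAJC3 had 14.9 FPKM with DMSO, 14.3 with 2.5 μM and 11.8 with 5 μM JG231, from 1343, 1628 and 1590 fragments. At 2.5 μM its interval of -0.17 to 0.04 holds 0. There the sign of its change turned with the removal of the length trend, and it was called lower (-0.35) with the common sum without mitochondrial and small RNA genes. At 5 μM DNAJC3 was 0.792-fold of DMSO (-0.44 to -0.23), the single member called lower. That call was lost when the trend in length was removed (-0.04). DNAJB9 was less abundant than DNAJC3 in DMSO and more abundant in both JG231 libraries, with ratios of 0.401 (0.350 to 0.457), 1.66 (1.54 to 1.79) and 2.42 (2.26 to 2.59).

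**Figure D2:**
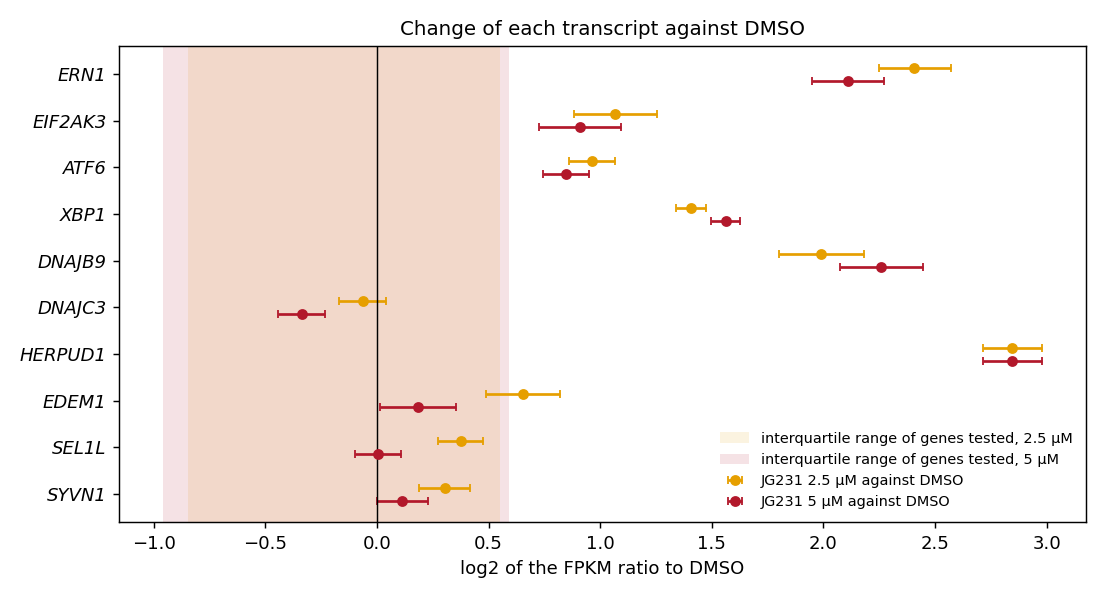
Log2 ratio of FPKM to DMSO for each member at 2.5 and 5 μM JG231, without a pseudocount, with 95% counting intervals as bars. The shaded bands are the interquartile ranges of the genes that could be called, -0.85 to 0.55 at 2.5 μM and -0.96 to 0.59 at 5 μM, computed with 0.1 added to each FPKM. HERPUD1, DNAJB9, ERN1, XBP1, EIF2AK3 and ATF6 lie above the bands at both doses, DNAJC3 lies at or below 0, and SEL1L and SYVN1 lie near 0 at 5 μM.

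HERPUD1, the ERAD member with a ubiquitin-like domain, had the highest ratio to DMSO of the 10 genes. HERPUD1 (ENSG00000051108, chromosome 16, 56932142 to 56944864, plus strand) had 6.28 FPKM with DMSO, 45.1 with 2.5 μM and 45.1 with 5 μM JG231, from 521, 4736 and 5598 fragments. The intervals of the log2 ratio were 2.71 to 2.98 at 2.5 μM and 2.72 to 2.98 at 5 μM, and its change at 5 μM exceeded that of 97.0% of all genes that could be called. The level of HERPUD1 was alike in the JG231 libraries within counting error, with an interval of the log2 ratio between them of -0.05 to 0.06, but with libraries scaled to a common sum HERPUD1 was lower at 5 than at 2.5 μM by a log2 change of -0.18.

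The members of the same pathway that act beside HERPUD1 had smaller ratios to DMSO than HERPUD1 at both doses. EDEM1 (ENSG00000134109, chromosome 3, 5187646 to 5219958, plus strand) had 4.16 FPKM with DMSO, 6.54 with 2.5 μM and 4.72 with 5 μM JG231, from 452, 901 and 768 fragments, which is 1.57-fold (0.49 to 0.82 on the log2 scale) and 1.14-fold (0.01 to 0.35). SEL1L (ENSG00000071537, chromosome 14, 81471547 to 81533853, minus strand) had 8.48 FPKM with DMSO, 10.99 with 2.5 μM and 8.5 with 5 μM JG231, from 1304, 2141 and 1955 fragments, which is 1.30-fold (0.27 to 0.48) and 1.0-fold (-0.10 to 0.11). SYVN1 (ENSG00000162298, chromosome 11, 65121780 to 65134532, minus strand) had 11.6 FPKM with DMSO, 14.3 with 2.5 μM and 12.5 with 5 μM JG231, from 1024, 1601 and 1656 fragments, which is 1.23-fold (0.19 to 0.42) and 1.08-fold, where the interval runs up to 0.23 and just holds 0. EDEM1, SEL1L and SYVN1 were thus called higher at 2.5 μM and not at 5 μM, where the sign of each turned with the scaling between libraries. With the trend in length removed, EDEM1 and SEL1L were called higher at 5 μM too, with log2 changes of 0.53 and 0.47. At 2.5 μM SEL1L and SYVN1 lost the call, with log2 changes of 0.08 and 0.01, when libraries were scaled to a common sum without mitochondrial and small RNA genes. SYVN1 shares 356 exon bases with MRPL49 on the opposite strand and 130 with FAU on its own strand in GENCODE release 44. MRPL49 had 21.1, 34.4 and 40.2 FPKM and FAU 86.7, 159 and 196 FPKM in DMSO, at 2.5 and at 5 μM, both higher with JG231, and their part in the SYVN1 values was not tested. MIR6751 shares 63 exon bases with SYVN1 and was at 0. On the opposite strand of EIF2AK3 the noncoding RNA ENSG00000225420, with 781 shared exon bases, reached at most 0.76 FPKM, and that of EDEM1, ENSG00000268509 with 631 bases, was at 0. The noncoding RNAs ENSG00000286629 and ENSG00000289957 share 432 and 452 exon bases with ERN1 on the opposite strand, and their levels were not analysed here.

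The level of HERPUD1 relative to its partners was higher in both JG231 libraries than in DMSO. HERPUD1 divided by SYVN1 was 0.542 in DMSO (0.487 to 0.603), 3.15 at 2.5 μM (2.98 to 3.34) and 3.60 at 5 μM (3.41 to 3.81). HERPUD1 divided by SEL1L was 0.741 (0.668 to 0.821), 4.10 (3.90 to 4.32) and 5.31 (5.04 to 5.59). These ratios rest on the exon length used for each gene, but the length cancels when a ratio is compared between libraries. Per length of the canonical transcript HERPUD1 was already above SEL1L in DMSO, at 11.4 against 10.2 FPKM, so that a passage from below to above SEL1L depends on the length used.

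**Figure D3:**
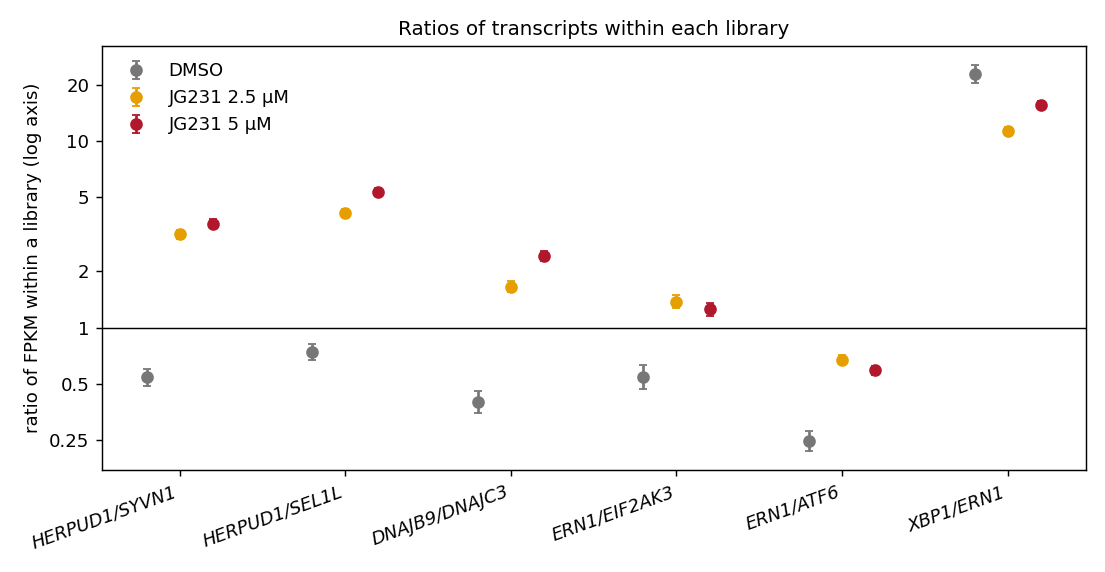
Ratio of the levels of 2 members within each library, on a log axis, with 95% counting intervals. HERPUD1 to SYVN1, HERPUD1 to SEL1L, DNAJB9 to DNAJC3 and ERN1 to EIF2AK3 pass from below 1 in DMSO to above 1 in both JG231 libraries, ERN1 to ATF6 stays below 1, and XBP1 to ERN1 is highest in DMSO.

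The promoters of XBP1 and HERPUD1 are shown because, of the 10 members, only they held any of 4 motifs known from ER stress genes in the 250 bases before a RefSeq start. The motifs were searched on both strands of 35116 windows of RefSeq promoters (GRCh38.p14). They were the ER stress response element (CCAAT, 9 bases, CCACG; in 26 windows, 0.0740%), the ER stress response element II (ATTGG, 1 base, CCACG; in 18 windows, 0.0513%), the unfolded protein response element (TGACGTGG; in 215 windows, 0.612%) and the C/EBP-ATF response element (TGATG, 1 base, AA; in 1104 windows, 3.14%). The sequences run 5′ to 3′ on the strand of the gene and capitals mark the matches. That of XBP1 holds the first 222 of the 250 bases, since GENCODE starts the gene within the remainder, and that of HERPUD1 holds all 250 bases.
XBP1, chr22:28800598-28800819, minus strand: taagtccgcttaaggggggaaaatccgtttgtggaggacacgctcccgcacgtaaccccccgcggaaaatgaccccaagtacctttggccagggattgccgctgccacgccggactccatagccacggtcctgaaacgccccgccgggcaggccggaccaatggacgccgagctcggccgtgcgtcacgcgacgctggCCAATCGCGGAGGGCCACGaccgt
HERPUD1, chr16:56931892-56932141, plus strand: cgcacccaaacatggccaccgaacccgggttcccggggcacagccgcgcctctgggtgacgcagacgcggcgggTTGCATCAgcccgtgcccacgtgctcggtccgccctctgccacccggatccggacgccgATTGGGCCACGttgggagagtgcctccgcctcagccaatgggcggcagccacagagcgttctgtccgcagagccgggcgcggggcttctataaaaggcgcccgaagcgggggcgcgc
In XBP1 the capitals are an ER stress response element on the strand of the gene, at bases -52 to -34 from the RefSeq start. A second XBP1 window held none of the 4 motifs. In HERPUD1 the first capitals are a C/EBP-ATF response element on the opposite strand, at -176 to -169, and the next are an ER stress response element II on the strand of the gene, at -117 to -107. The other 8 members held none of these exact letters in the window. Of these, ERN1, EIF2AK3, ATF6 and DNAJB9 were called higher at both doses, EDEM1, SEL1L and SYVN1 at 2.5 μM only, and DNAJC3 was called lower at 5 μM. The search allowed no mismatch, so it cannot show that such elements are absent. A match describes the sequence and is no evidence of binding.

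The doses were then set against each other directly. From 2.5 to 5 μM, 1 member was called higher (DNAJB9) and 4 lower (ERN1, DNAJC3, EDEM1 and SEL1L), beside 26.8% higher and 30.1% lower of 14197 genes, and the median of the members was -0.17 against -0.02 over all genes. EDEM1 had the lowest ratio, with a log2 change of -0.46 (95% interval of the ratio -0.61 to -0.33), followed by SEL1L at -0.37 (-0.46 to -0.28), ERN1 at -0.30 (-0.38 to -0.22) and DNAJC3 at -0.27 (-0.37 to -0.17). DNAJB9 was 0.27 higher (0.17 to 0.37) and XBP1 0.16 higher (0.11 to 0.20), but with libraries scaled to a common sum DNAJB9 lost the call (0.09), XBP1 turned to -0.02 and 7 members were called lower. With the trend in length removed, EDEM1 alone was called lower (-0.35) and no member higher. The spread of genes of like expression between these libraries was taken as the scaled median absolute deviation of the log2 ratio over the 500 nearest genes. It was between 0.21 for XBP1 and 0.45 for EDEM1, and it holds any effect of dose as well as error. Of the members called, ERN1 (spread 0.33), DNAJC3 (0.30) and DNAJB9 (0.268 against a spread of 0.272) lay within their spread. SEL1L (spread 0.31) lay beyond it, and EDEM1 (-0.462 against 0.452) only just.

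The order of levels also differed. In DMSO, XBP1 was followed by DNAJC3, SYVN1, SEL1L, ATF6, HERPUD1, DNAJB9, EDEM1, EIF2AK3 and ERN1, and the counting intervals overlapped between SEL1L and ATF6, HERPUD1 and DNAJB9, and EDEM1 and EIF2AK3. In both JG231 libraries the order was XBP1, HERPUD1, DNAJB9, ATF6, SYVN1, DNAJC3, ERN1, SEL1L, EIF2AK3 and EDEM1, with SYVN1 and DNAJC3, and ERN1 and SEL1L, overlapping. HERPUD1 moved from rank 6 to rank 2 and ERN1 from rank 10 to rank 7. Ranks depend on the exon length. When levels were expressed per length of the canonical transcript, HERPUD1 in DMSO was 11.4 rather than 6.28 FPKM and ranked 4, SYVN1 ranked 2 and DNAJC3 ranked 3, and ERN1 (2.86 FPKM) remained the lowest.

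The wider pathway was described by lists of genes that hold none of the 10 members. Their counts stand beside 36.5% higher and 45.1% lower of all genes at 5 μM and 36.4% higher and 43.4% lower at 2.5 μM. Of 32 other genes of the ERAD machinery, 31 could be called at 5 μM, with 18 higher, 8 lower and a median log2 change of 0.45. SELENOK and SELENOS, selenoproteins of the ER membrane that act with the VCP ATPase, had 18.6, 55.0 and 56.7 FPKM and 10.1, 17.0 and 23.4 FPKM in DMSO, at 2.5 and at 5 μM. AUP1, which recruits the ubiquitin-conjugating enzyme UBE2G2, had 41.7, 108 and 110.1 FPKM, whereas UBE2G2 itself had 22.0, 15.3 and 11.8 FPKM. The ubiquitin ligase MARCHF6 had 16.2, 10.9 and 8.06 FPKM, and UBXN4, a VCP adaptor, 40.6, 30.5 and 26.0 FPKM. At 2.5 μM, 18 of 32 were higher and 9 lower, with a median of 0.36. Scaled to a common sum without mitochondrial and small RNA genes, the list had 13 higher and 11 lower at 5 μM and 10 higher and 10 lower at 2.5 μM, and its median was 0.07 at either dose.

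Of 28 genes for translocation into and export from the ER, 27 could be called, with 19 higher and 4 lower at 5 μM (median 0.42) and 13 higher and 3 lower at 2.5 μM (median 0.22). Scaled to a common sum without mitochondrial and small RNA genes, 7 were higher and 7 lower at 5 μM (median 0.04) and 8 higher and 9 lower at 2.5 μM, where the median turned to -0.07. The translocon subunit SEC61G had 31.0, 66.8 and 71.8 FPKM, the coat protein SEC13 13.7, 26.2 and 31.5 FPKM, and the signal recognition particle receptor subunit SRPRB 7.57, 15.98 and 15.3 FPKM. The signal peptidase subunit SPCS3 had 15.3, 10.5 and 9.98 FPKM, SSR1 17.1, 10.5 and 11.5 FPKM, and the cargo receptor LMAN1 33.2, 26.1 and 23.8 FPKM.

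The partners and processing enzymes of the sensors made up a list of 24 genes. Of the 21 that could be called, 9 were higher and 7 lower at 5 μM and 9 higher and 8 lower at 2.5 μM, with medians of 0.13 and 0.21 that turned to -0.25 and -0.08 under that scaling without mitochondrial and small RNA genes. PPP1R15A (GADD34), the phosphatase subunit that reverses the phosphorylation made by EIF2AK3, had 6.63 FPKM with DMSO, 80.8 with 2.5 μM and 103 with 5 μM JG231. NFE2L2, a transcription factor and substrate of EIF2AK3, had 11.8, 28.5 and 29.0 FPKM, and CREB3, an ER membrane factor of the ATF6 kind, 16.2, 37.9 and 43.5 FPKM. The largest decreases of the list at 5 μM were those of MBTPS2, NFYA and ATF6B. The Golgi protease MBTPS2, which releases ATF6, had 3.22, 2.09 and 1.28 FPKM, ATF6B, the paralog of ATF6, 59.97, 33.6 and 31.7 FPKM, and NFYA, a subunit of the factor that binds CCAAT with ATF6, 20.05, 14.7 and 10.5 FPKM. The other subunits of that factor, given here after their values were seen, did not follow NFYA, since NFYB had 10.1, 11.6 and 10.2 FPKM and NFYC 10.4, 20.4 and 20.3 FPKM.

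**Figure D4:**
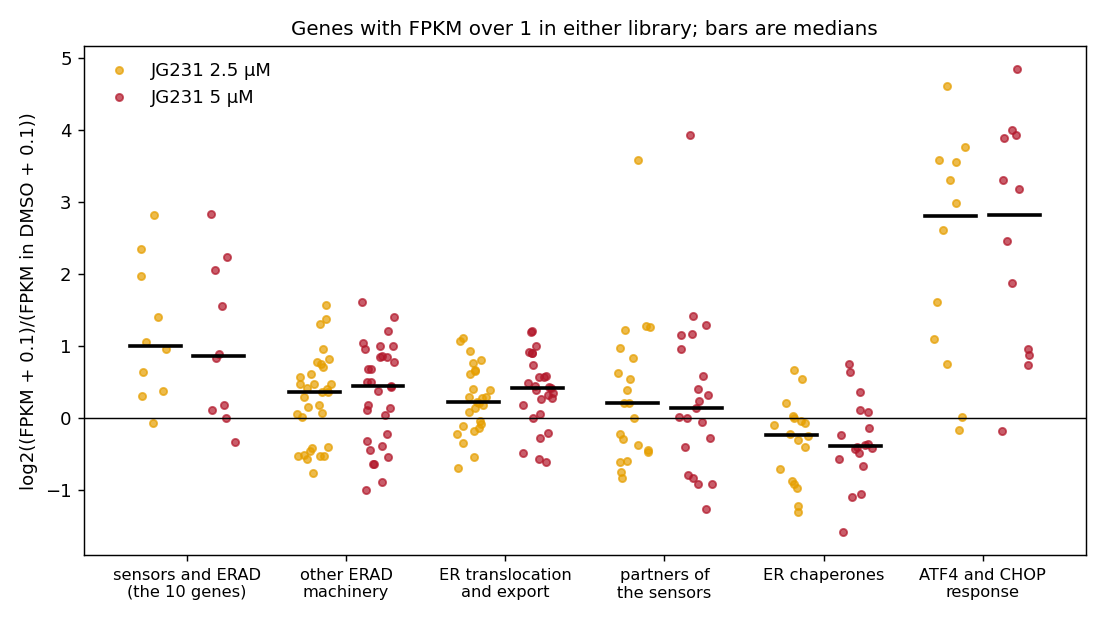
Log2 change at 2.5 and 5 μM (with 0.1 added to each FPKM) of each gene that could be called, for the members and the 5 lists. Points are genes, spread sideways for legibility, and bars are medians. The median at 5 μM is 0.87 for the members, 0.45 for other ERAD machinery, 0.42 for translocation and export, 0.13 for partners of the sensors, -0.39 for ER chaperones and 2.82 for the ATF4 and CHOP response.

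A pair of lists from the same stress response lay on either side of the members. Of 18 ER chaperones and folding enzymes, 3 were called higher and 11 lower at 5 μM, with a median of -0.39, and 2 higher and 9 lower at 2.5 μM, with a median of -0.24. Without mitochondrial and small RNA genes in the common sum, 15 were lower at each dose, with medians of -0.77 and -0.53, while the median gene of the table was itself at -0.38 and -0.28. Of all genes, 45.1% were lower at 5 μM and 43.4% at 2.5 μM, and the share of the chaperones at 2.5 μM was near the latter. HSPA5 had 209, 305 and 353 FPKM, its cochaperone partner SDF2L1 17.2, 27.4 and 26.8 FPKM and the nucleotide exchange factor HYOU1 28.7, 33.3 and 36.8 FPKM, while HSP90B1 had 248, 135 and 119 FPKM, the glycoprotein folding sensor UGGT1 10.1, 4.28 and 3.30 FPKM and the J-domain reductase DNAJC10 15.0, 5.99 and 6.97 FPKM. DNAJC10 and DNAJC3 were lower at 5 μM while DNAJB9 was higher, so J-domain proteins of the ER were found in both directions. Of 12 genes of the ATF4 and CHOP response, the transcripts downstream of eIF2α phosphorylation, 11 were higher and 0 lower at 5 μM (median 2.82) and 10 higher and 0 lower at 2.5 μM (median 2.80). Without mitochondrial and small RNA genes in the common sum, 1 was lower at 5 μM and 2 at 2.5 μM. PPP1R15A belongs to this list too. DDIT3 (CHOP) had 24.8, 338 and 397 FPKM and TRIB3 5.58, 139 and 163 FPKM. Among the members, HERPUD1 had a log2 change at 5 μM of 2.83, close to the median of that list, and ERN1 (2.06) and DNAJB9 (2.24) lay below it. Whether these lists and the members differ beyond the variation between cultures could not be tested with 1 library per condition.

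**Figure D5:**
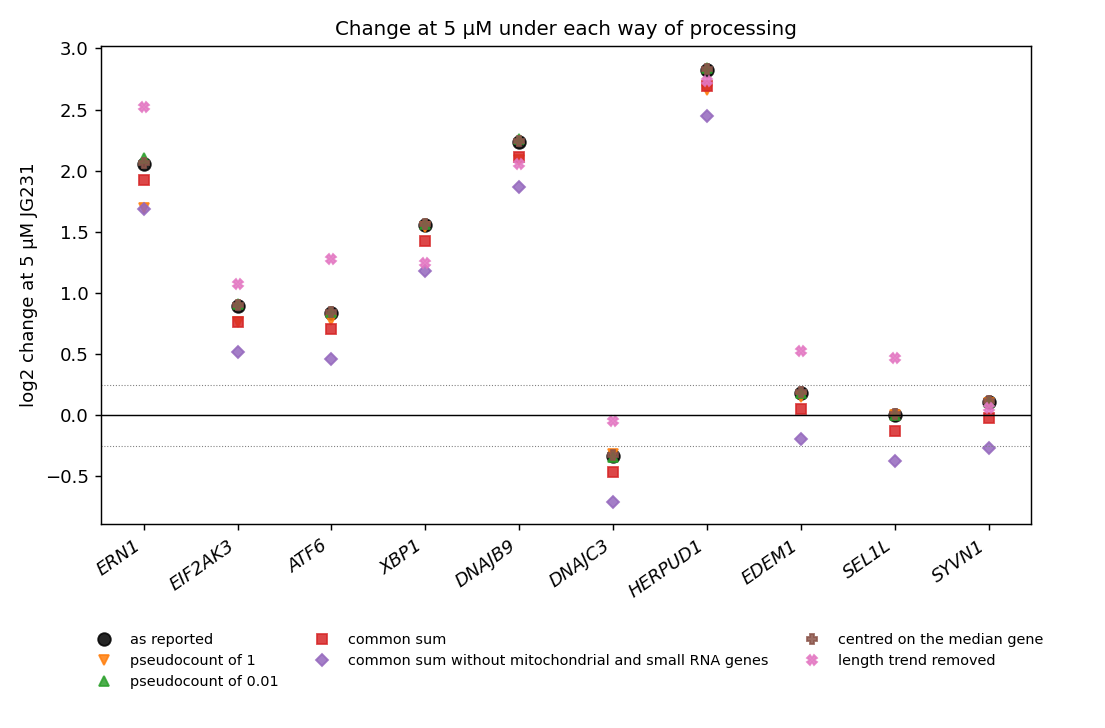
Log2 change of each member at 5 μM as reported and under 6 other ways of processing. HERPUD1, DNAJB9, ERN1, XBP1, EIF2AK3 and ATF6 stay above 0.25 in each, DNAJC3 stays below 0, and EDEM1, SEL1L and SYVN1 fall on both sides of 0.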

How the data were processed

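RNA-seq of H660 cells given DMSO, 2.5 μM or 5 μM JG231 for 24 h was analysed, with 1 library per condition. The authors deposited FPKM for 58735 genes in 1 table. The submitters' processing notes name HISAT2, featureCounts, GRCh38 and hg38, whereas the methods of the study name HISAT, StringTie and a Top Hat-Cufflinks pipeline. The annotation release and the use of strand in counting are not given in the sources used here, so values of overlapping genes are uncertain.

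Log2 changes were computed with a pseudocount of 0.1 on the deposited FPKM, and called beyond 0.25 or beyond 1. The pseudocount, a minimum FPKM of 1 and the 0.25 come from the methods of the study. The minimum was applied here to either library, so that genes at 0 in only one of them were kept, as the study also did. No test was run. Identifiers linked 58207 genes to GENCODE release 44. Members and list genes were found by their symbol in the deposited table. Where that failed the GENCODE symbol or another symbol was used, since some symbols, such as that of MARCHF6, had become dates. In genes with a single transcript, 1 fragment was worth 62.2, 49.1 and 41.6 FPKM bp in DMSO, 2.5 μM and 5 μM. The length behind a gene's FPKM was taken as the shortest, up to 40000 bases, at which all 3 libraries gave whole fragments within 0.001, which succeeded for 10 of 10 members. For EIF2AK3 longer multiples were also possible and its fragments are a minimum. For 6 members this length was within 3% of the GENCODE exon length. Intervals are 95% and do not account for PCR copies. The scripts were tested on simulated data.

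The members and lists were chosen with earlier results of these data known. All 10 members are named, and, in each of the 5 pathway lists, up to 3 genes with the largest increase and 3 with the largest decrease at 5 μM among genes whose mean FPKM reached 1 and whose sign was shared by both doses. Genes that share exon bases with a member in GENCODE are named in addition. The value of 1 marker gene is not reported here. Alternatives were another pseudocount, filter, scaling or threshold and the removal of a trend with transcript length. Intervals were computed with scipy 1.17.1, the length trend with statsmodels 0.14.6, tables with pandas 2.3.3 and numpy 2.4.6, and figures with matplotlib 3.10.9, all under Python 3.11.15.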

Additional observations from a re-analysis of the deposited data

How the results depend on the processing

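Under each alternative pseudocount, filter, scaling and length correction run, the log2 changes of HERPUD1, DNAJB9, XBP1, ERN1, EIF2AK3 and ATF6 were above 0.25 at both doses, the lowest value being 0.46 for ATF6 at 5 μM. Removing mitochondrial and small RNA genes from a common sum put the median of 13785 genes at -0.38 (5 μM) and -0.28 (2.5 μM), and there the median of the members was 0.49 and 0.71, with 3 members called lower at 5 μM and 1 at 2.5 μM. A common sum of all genes put the median gene at -0.14 at 5 μM, where the median of the members was 0.74. With the trend in transcript length removed, 8 members were higher and 0 lower at 5 μM, EDEM1 and SEL1L being gained, and the members had medians of 1.16 (5 μM) and 1.2 (2.5 μM). With a threshold of 1 and otherwise the main settings, 4 members were higher and 0 lower at 5 μM and 5 were higher at 2.5 μM. ATF6 was not among them at either dose, nor was EIF2AK3 at 5 μM. With the length trend removed, ATF6 passed 1 at 5 μM (1.28) and 2.5 μM (1.23), and EIF2AK3 passed 1 at 5 μM (1.08). A common sum put ATF6 at 1.003 at 2.5 μM. For 5 against 2.5 μM, where alternatives were chosen after seeing the data, a common sum gave 0 members higher and 7 lower with a median of -0.35. The sum without mitochondrial and small RNA genes gave 0 higher and 5 lower with a median of -0.26. The removal of the length trend gave 0 higher and 1 lower, and a threshold of 1 gave 0 higher and 0 lower. The cause of these shifts was not tested. Over the alternatives, the log2 change at 5 μM ran from -0.19 to 0.53 for EDEM1, -0.37 to 0.47 for SEL1L and -0.27 to 0.12 for SYVN1, and at 2.5 μM DNAJC3 ran from -0.35 to 0.13. No paired analysis was possible because each condition has 1 library, and no library could be left out.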
